A study of Gallus gallus with 8 samples.

Results

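The 8 genes described here are markers of B cells and of the antibody-secreting plasma cells that B cells give rise to. They were taken by symbol from the 24154 genes of the count table, and all 8 were found. *IGLL1*, *JCHAIN* and *POU2AF1* belong to immunoglobulin chains and antibody secretion and are given apart from *CD79B*, *BLNK*, *BTK*, *PAX5* and *EBF1*, which belong to the B cell receptor, its signaling and B cell identity. The libraries were made from intervertebral discs (IVDs) of the tail of 10-wk-old chickens, with no treatment named. There were 4 libraries of fusing IVDs, from the pygostyle at the tail tip where discs are lost as vertebrae fuse, and 4 of free caudal IVDs, which lie nearer the body and stay unfused. The labels give the breed as white leghorn and the study's methods as Tetra, and the methods give 8 chickens for the 8 libraries without saying which bird gave which disc. The disc position and fusion differ together between the tissues and cannot be told apart.

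B cells recognise antigen with a membrane immunoglobulin that signals through CD79A and CD79B, and the kinases LYN, SYK and BTK and the adaptor BLNK carry the signal on. PAX5 and EBF1 are transcription factors that set B cell identity, and a cell that matures into a plasma cell switches off *PAX5* and devotes its transcription to immunoglobulin chains and JCHAIN, the peptide that joins polymeric antibodies. Chickens use lambda light chains alone, and their B cells mature in the bursa of Fabricius. In mammals, IGLL1 is part of the surrogate light chain of immature B cells. The symbol *IGLL1* is used here as the chicken annotation gives it, and the counts do not tell lambda light chain transcripts from those of a surrogate chain. BTK and BLNK also act in myeloid cells, and EBF1 is also a factor of stromal and fat cell precursors.

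The libraries summed to between 5682402 and 18434459 counts. Summed markers of disc cartilage ranged from 46448 to 135097 CPM (counts scaled to a common library size with TMM factors) in fusing IVDs and from 151129 to 227512 CPM in free IVDs, so cartilage transcripts were abundant in every library. In bulk tissue, fewer cells of a type and less RNA per cell cannot be told apart. Fusing replicate 3 stood apart for several leukocyte genes, and its values are given beside the results that it touches.

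Every member was higher in all 4 fusing libraries than in all 4 free libraries, from *IGLL1* with a 22.4-fold change to *EBF1* with a 3.02-fold change. Of the 8 members, 6 had enough counts to be tested, and all 6 were called higher in fusing IVDs (edgeR quasi-likelihood test, adjusted p under 0.05 and over 2-fold). Over all 13639 tested genes, 13.2% were called higher, 9.64% were called lower, and 19.6% had all fusing libraries above all free libraries. The median log2 fold change over all tested genes was 0.01. *PAX5* and *POU2AF1* were below the filter on low counts and are described by their counts. *JCHAIN* and *BTK* reached the filter in all 4 fusing libraries and in 3 free libraries. The study itself names *BLNK*, *BTK*, *CD79B*, *IGLL1* and *JCHAIN* from the same libraries, so their direction is not independent evidence.

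**Figure D1:**
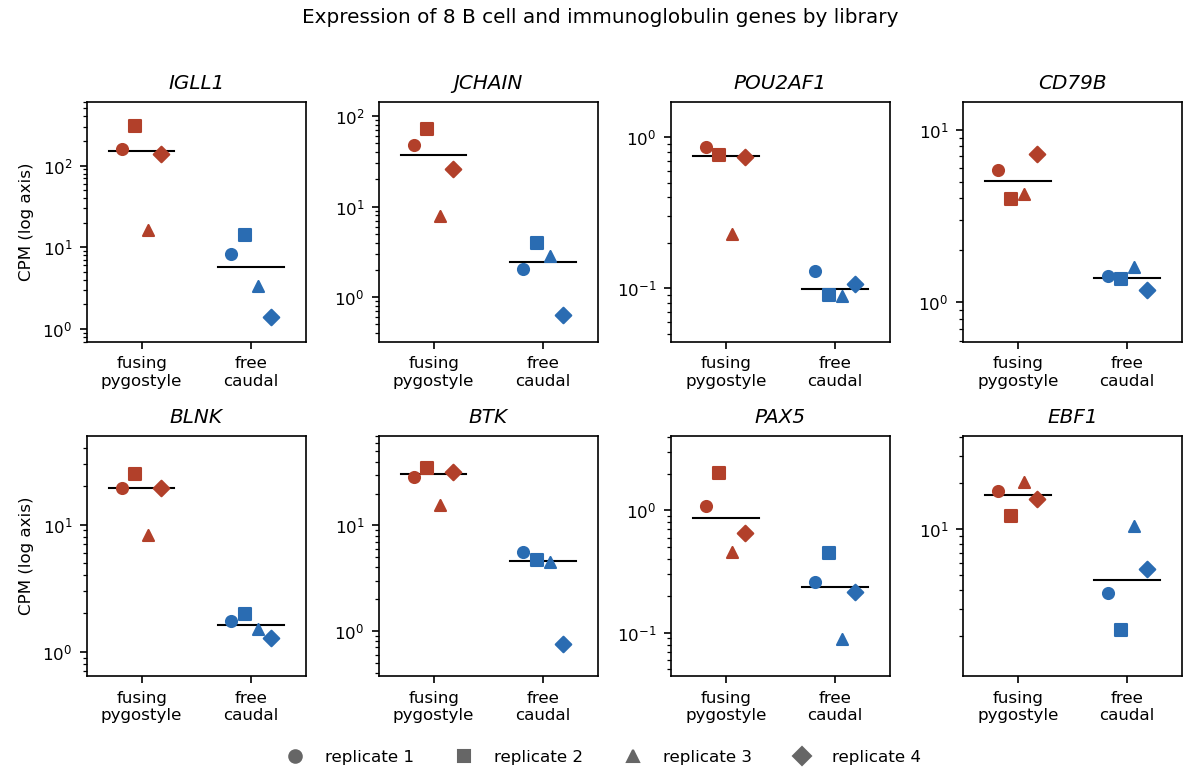
CPM on a log axis in each library for the 8 members, with fusing pygostyle IVDs at left and free caudal IVDs at right in each panel, symbols for the replicates and a line at the median. All fusing libraries lie above all free libraries for each gene, and fusing replicate 3 is the lowest fusing library for *IGLL1* (16.1 CPM), *JCHAIN* (7.92 CPM) and *POU2AF1* (0.228 CPM) but the highest for *EBF1* (20.4 CPM).

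Among the immunoglobulin and antibody secretion genes, *IGLL1* had the highest mean CPM of all members in both tissues. Single libraries differed, as *EBF1* exceeded it in fusing replicate 3 (20.4 CPM) and in free replicates 3 and 4 (10.4 and 5.47 CPM). *BTK* exceeded it in free replicate 3 (4.51 CPM). *IGLL1* lies on chromosome 15 (8213817 to 8231115, minus strand, GRCg6a) as 11 exon blocks. It had 2954, 2383, 211 and 3192 counts in fusing replicates 1 to 4, against 128, 157, 38 and 13 counts in free replicates 1 to 4. On the CPM scale, these were 159, 303, 16.1 and 140 in fusing IVDs, against 8.27, 14.2, 3.36 and 1.39 in free IVDs. Fusing replicates 1, 2 and 4 were far above every free library, whereas fusing replicate 3 lay just above free replicate 2. *IGLL1* averaged 155 ± 118 CPM in fusing IVDs and 6.81 ± 5.71 CPM in free IVDs (SD, n = 4 each), a log2 fold change of 4.49 (SE 0.91, by edgeR adjusted p = 0.00420). The value was 5.09 without free replicate 2. With a block for the number that a sample code carries, over the 6 libraries whose number the tissues share, it was 3.61 and no longer called (edgeR adjusted p = 0.0988).

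*JCHAIN*, on chromosome 4 (50012276 to 50018044), had a like pattern at a lower level. It had 894, 568, 104 and 597 counts in fusing replicates 1 to 4, against 32, 44, 32 and 6 counts in free replicates 1 to 4. In CPM, the fusing libraries stood at 48.3, 72.3, 7.92 and 26.2, and the free libraries at 2.07, 3.98, 2.83 and 0.644. The lowest fusing library was again replicate 3, and the groups did not overlap. The means were 38.7 ± 27.8 CPM in fusing IVDs and 2.38 ± 1.40 CPM in free IVDs (SD, n = 4 each), for a log2 fold change of 4.00 (SE 0.70, by edgeR adjusted p = 0.00202). An unnamed gene that overlaps its exons had 3 counts over the fusing libraries and 2 over the free libraries.

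*POU2AF1*, on chromosome 24 (4343408 to 4355899), encodes a coactivator of octamer factors at immunoglobulin promoters. It had 16, 6, 3 and 17 counts in fusing replicates 1 to 4, against 2, 1, 1 and 1 in free replicates 1 to 4. The 42 counts over the fusing libraries and 5 over the free libraries gave a ratio of summed rates of 6.36 (95% exact interval 2.52 to 20.6, for counting error only). The groups did not overlap, with means of 0.650 ± 0.286 CPM in fusing IVDs and 0.104 ± 0.0189 CPM in free IVDs (SD, n = 4 each). It stayed below the filter because no free library and 3 fusing libraries reached it. When every gene with a count was fitted, its log2 fold change was 2.52 (SE 0.59, by edgeR adjusted p = 0.00912).

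Rows named VH26L gave a further view of antibody transcripts, since the symbol is that of immunoglobulin heavy chain variable genes. There are 5 such rows, which lie within 51.1 kb of a GRCg6a chromosome (2357656 to 2408732) and were chosen after their values were seen, except *VH26L1*. That row was named because its pattern over the 8 libraries was the most like that of *IGLL1*. The comparison was among tested genes other than the members and rows with LOC symbols. *VH26L1* had 242, 234, 33 and 262 counts in fusing replicates 1 to 4, against 15, 22, 8 and 1 in free replicates 1 to 4. Its log2 fold change was 3.86 (SE 0.80, by edgeR adjusted p = 0.00476), and with the sample code block it was 3.04 and no longer called (edgeR adjusted p = 0.0860). Without fusing replicate 2 it was 3.23 and still called. Together the 5 rows had 286, 271, 34 and 310 counts in fusing replicates 1 to 4, against 17, 30, 8 and 1 in free replicates 1 to 4. *VH26L1* holds most of these counts and was picked by its likeness to *IGLL1*, so its low value in fusing replicate 3 is not independent of *IGLL1*. These genes are closely related copies, and the authors' counting left out reads with several matches, so each row is uncertain. Constant regions of the heavy chain were not analysed here.

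Of the B cell receptor and identity genes, the 4 that were tested were called higher. *CD79B*, a signaling chain of the receptor whose expression is largely restricted to B cells, lies on chromosome 27 (4040794 to 4045230). It had 108, 31, 56 and 166 counts in fusing replicates 1 to 4, against 22, 15, 18 and 11 in free replicates 1 to 4. In CPM it stood at 5.83, 3.95, 4.26 and 7.28 in fusing IVDs, against 1.42, 1.36, 1.59 and 1.18 in free IVDs. The free libraries lay close together, and fusing replicate 3 was not the lowest fusing library. The means were 5.33 ± 1.54 CPM in fusing IVDs and 1.39 ± 0.17 CPM in free IVDs (SD, n = 4 each), a log2 fold change of 1.94 (SE 0.27, by edgeR adjusted p = 0.000719). LOC107055278 overlaps exons of *CD79B* and had a log2 fold change of 1.28, and in counts made without strand their reads are less certain.

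*BLNK*, on chromosome 6 (22051931 to 22144236), encodes the adaptor that links SYK to BTK. It had 359, 196, 109 and 442 counts in fusing replicates 1 to 4, against 27, 22, 17 and 12 in free replicates 1 to 4. The CPM values were 19.4, 25.0, 8.30 and 19.4 in fusing IVDs, against 1.74, 1.99, 1.50 and 1.29 in free IVDs. The lowest fusing library was over 4 times as high as the highest free library. *BLNK* rose by a log2 fold change of 3.45 (SE 0.35, by edgeR adjusted p = 0.000165), the smallest adjusted p of the members.

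*BTK*, the receptor's downstream tyrosine kinase, lies on chromosome 4 (2028048 to 2039549). It had 534, 276, 204 and 735 counts in fusing replicates 1 to 4, against 86, 52, 51 and 7 in free replicates 1 to 4. The CPM values were 28.8, 35.1, 15.5 and 32.2 in fusing IVDs, against 5.56, 4.70, 4.51 and 0.751 in free IVDs. Free replicate 4 stood well below the other free libraries. The log2 fold change was 2.82 (SE 0.47, by edgeR adjusted p = 0.00162) and 2.49 without free replicate 4. *BTK* shares exon positions with *RPL36A*, a ribosomal protein gene at 198 ± 41.9 CPM in fusing IVDs and 202 ± 14.8 CPM in free IVDs (SD, n = 4 each), whose log2 fold change was -0.03 and which was not called.

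*PAX5*, on chromosome Z (82009127 to 82122598), had 20, 16, 6 and 15 counts in fusing replicates 1 to 4, against 4, 5, 1 and 2 in free replicates 1 to 4. The sums of 57 counts in fusing and 12 counts in free libraries gave a ratio of summed rates of 3.59 (95% exact interval 1.91 to 7.36, for counting error only). In CPM, fusing replicate 3 (0.457) and free replicate 2 (0.452) nearly met. When every gene with a count was fitted, the log2 fold change was 1.94 (SE 0.61, by edgeR adjusted p = 0.0381). It passed the filter in some fits that left out a library, and was not called there without free replicate 1, 3 or 4 (edgeR adjusted p of 0.0686, 0.0670 and 0.0710).

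*EBF1*, on chromosome 13 (11389367 to 11652875), had 327, 95, 268 and 356 counts in fusing replicates 1 to 4, against 59, 24, 118 and 51 in free replicates 1 to 4. The CPM values were 17.7, 12.1, 20.4 and 15.6 in fusing IVDs, against 3.81, 2.17, 10.4 and 5.47 in free IVDs. Replicate 3 was the highest library of each tissue, which was so for no other member. The log2 fold change was 1.59 (SE 0.41, by edgeR adjusted p = 0.0136), and 2.28 with the sample code block (by edgeR adjusted p = 0.0105). Of 9 tested genes of the stromal and adipocyte lineage, with which *EBF1* is shared, 4 were called higher and 1 lower. Their median log2 fold change was 2.02. The 4 higher were *CEBPA* (4.15), *FABP4* (2.86), *PDGFRA* (2.40) and *PPARG* (2.02), and the lower was *ADIPOQ* (-2.87), in log2 fold change. The genes not called were *ZNF423* (-0.64), *EBF3* (-0.36), *LPL* (0.57) and *PLIN1* (2.20). Of these, *ZNF423* was lower in all fusing than in all free libraries (edgeR adjusted p = 0.00563), under the 2-fold limit. The summed level of that list was 228 to 400 CPM in fusing IVDs and 300 to 504 CPM in free IVDs, where *ADIPOQ* averaged 31.0 CPM in fusing IVDs and 229 CPM in free IVDs. The list's part in the *EBF1* result was not tested.

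**Figure D2:**
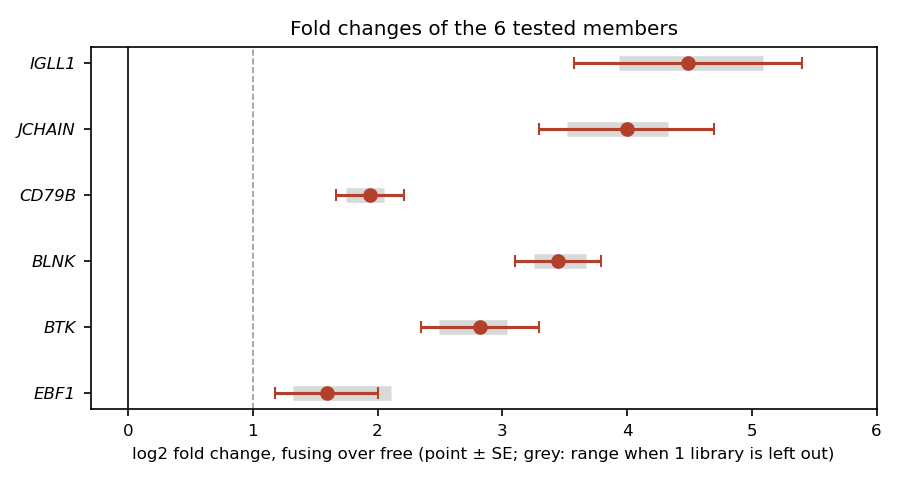
Log2 fold change of fusing over free IVDs for the 6 tested members, with points and bars for the estimate and its SE and grey bands for the range when 1 library is left out. *IGLL1* has the widest band, from 3.93 to 5.09, and *CD79B* a narrow band from 1.75 to 2.05, and no band reaches the dashed line at a log2 fold change of 1.

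Per kb of exon, which allows levels to be compared between genes, fusing IVDs had *IGLL1* at 107, *JCHAIN* at 22.5, *BTK* at 11.1, *BLNK* at 6.58, *CD79B* at 3.35, *EBF1* at 2.66, *POU2AF1* at 0.204 and *PAX5* at 0.132 CPM per kb. Neighbors in this order had overlapping ranges over the 4 libraries, other than *EBF1* (1.95 to 3.30 CPM per kb) and *POU2AF1* (0.0716 to 0.271 CPM per kb). In free IVDs, the order was *IGLL1* at 4.71, *BTK* at 1.54, *JCHAIN* at 1.39, *EBF1* at 0.884, *CD79B* at 0.873, *BLNK* at 0.597, *POU2AF1* at 0.0326 and *PAX5* at 0.0315 CPM per kb. There the ranges of neighbors overlapped except for *CD79B* (0.742 to 1.00 CPM per kb) over *BLNK* (0.471 to 0.727 CPM per kb) and *BLNK* over *POU2AF1* (0.0277 to 0.0405 CPM per kb).

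The members differed in how far fusing replicate 3 lay from the other fusing libraries. The mean CPM of fusing replicates 1, 2 and 4 was 12.5 times that of fusing replicate 3 for *IGLL1*, 8.18 times for the summed VH26L rows, 6.18 times for *JCHAIN* and 3.46 times for *POU2AF1*. It was 2.75 times for *PAX5*, 2.56 times for *BLNK*, 2.07 times for *BTK*, 1.33 times for *CD79B* and 0.741 times for *EBF1*. *PTPRC*, which encodes the CD45 antigen of all leukocytes, differed by 2.56 times. *IGLL1* and *JCHAIN* were thus lower in this library by more than *PTPRC* was, and *CD79B* by less. Large drops were not particular to immunoglobulin genes. The myeloid gene *MPO* stood at 54.9 CPM there, beside 470, 492 and 543 CPM in fusing replicates 1, 2 and 4. The T cell gene *CD3D* stood at 6.32 CPM beside 28.2, 31.8 and 38.2 CPM. Smaller drops were seen for *CSF1R* (148 beside 198, 253 and 178 CPM) and *CD3E* (10.0 beside 17.6, 24.8 and 19.9 CPM). *IGHVL*, a row annotated as a heavy chain variable gene but of uncertain identity, was not low there. It stood at 21.2 CPM in fusing replicate 3 beside 19.9, 14.4 and 16.0 CPM in fusing replicates 1, 2 and 4. These are descriptions of 1 library. Fusing replicate 3 also had the lowest sums of the fusing libraries for pan-leukocyte, T cell and myeloid genes (244, 42.5 and 441 CPM) and for red cell genes (6961 CPM), and the highest sum for cartilage genes (135097 CPM). Their part in the immunoglobulin values was not tested. Without this library, the log2 fold changes of all 8 members were called higher in fusing IVDs. *PAX5* and *POU2AF1* passed the filter there only through the other 3 fusing libraries, as no free library reached it. Their 2 added calls thus follow from a filter that favors genes high in fusing IVDs, and are no separate support.

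**Figure D3:**
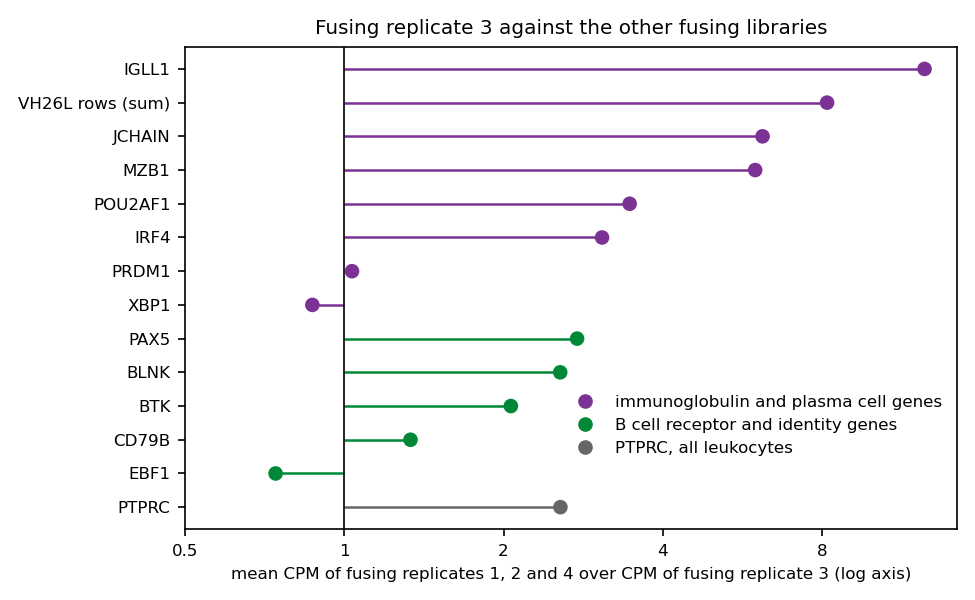
Mean CPM of fusing replicates 1, 2 and 4 over the CPM of fusing replicate 3, on a log axis, for immunoglobulin and plasma cell genes, B cell receptor and identity genes, and *PTPRC*. *IGLL1*, the VH26L rows, *JCHAIN* and *MZB1* lie between 5.98 and 12.5, whereas *PRDM1* (1.03), *XBP1* (0.870), *CD79B* (1.33) and *EBF1* (0.741) lie near or below 1.

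*PTPRC* itself had 111, 142, 42.5 and 73.5 CPM in fusing IVDs, against 12.8, 13.3, 12.6 and 5.15 CPM in free IVDs, for a log2 fold change of 3.07 (SE 0.42, by edgeR adjusted p = 0.000592). Set against *PTPRC*, the members no longer moved together. *IGLL1* had 1.43, 2.13, 0.377 and 1.90 counts per *PTPRC* count in fusing IVDs, against 0.646, 1.07, 0.268 and 0.271 in free IVDs. Fusing replicates 1, 2 and 4 lay above all free libraries, and fusing replicate 3 lay within their range. *JCHAIN* per *PTPRC* count was 0.433, 0.509, 0.186 and 0.356 in fusing IVDs, against 0.162, 0.299, 0.225 and 0.125 in free IVDs, with the same 3 fusing libraries on top.

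*CD79B* went the other way on this scale. It had 0.0524, 0.0278, 0.100 and 0.0990 counts per *PTPRC* count in fusing IVDs, against 0.111, 0.102, 0.127 and 0.229 in free IVDs. All fusing libraries were below all free libraries, by a narrow gap for fusing replicates 3 and 4. The lowest free value, in free replicate 2, rests on 15 *CD79B* counts. The highest is in free replicate 4, with 11 *CD79B* counts, where *PTPRC* itself was low (5.15 CPM). *BLNK* (0.174 to 0.264 in fusing and 0.120 to 0.250 in free IVDs) and *BTK* (0.247 to 0.439 in fusing and 0.146 to 0.434 in free IVDs) overlapped between the tissues, as did *PAX5*, *POU2AF1* and *EBF1*. *IGLL1* per *CD79B* count was 27.4, 76.9, 3.77 and 19.2 in fusing IVDs, against 5.82, 10.5, 2.11 and 1.18 in free IVDs. Again fusing replicates 1, 2 and 4 stood above all free libraries and fusing replicate 3 did not. These ratios are descriptions, with no test. *CD79B* rose less than *PTPRC* (log2 fold changes of 1.94 and 3.07), as did the T cell genes *CD3E* (1.90) and *CD247* (1.57). Ratios to *PTPRC* were computed for the members only, so the low *CD79B* ratios are not shown to be particular to it.

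**Figure D4:**
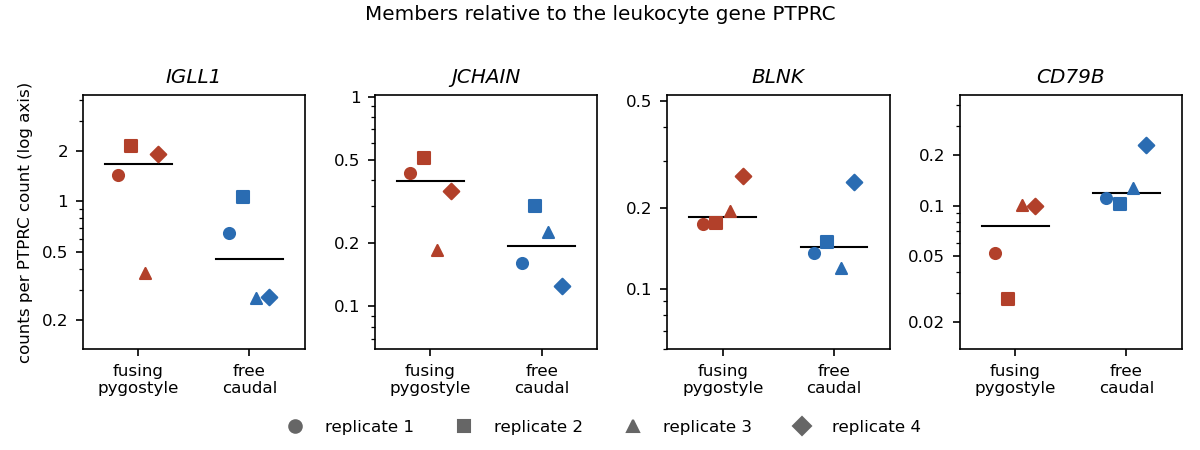
Counts per *PTPRC* count, on a log axis, in each library for *IGLL1*, *JCHAIN*, *BLNK* and *CD79B*, with fusing pygostyle IVDs at left, free caudal IVDs at right and a line at the median. For *IGLL1* and *JCHAIN*, fusing replicates 1, 2 and 4 lie above the free libraries and fusing replicate 3 within their range. For *CD79B*, all fusing libraries (0.0278 to 0.100) lie below the free libraries (0.102 to 0.229), by a narrow gap.

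Of 9 other plasma cell genes that were tested, 2 were called higher and none lower, and their median log2 fold change was 0.11. *CD38* (0.60), *DERL3* (0.11), *FKBP11* (-0.48) and *ELL2* (-0.53) were among those not called, in log2 fold change. The summed level of the list was 376 to 431 CPM in fusing IVDs and 526 to 689 CPM in free IVDs. Its most abundant genes were *SDC1* and *XBP1*, given below. *IRF4*, a factor of plasma cell differentiation that other leukocytes also use, stood at 4.37, 3.69, 1.14 and 2.46 CPM in fusing IVDs, against 0.776, 0.723, 1.06 and 0.751 CPM in free IVDs (log2 fold change 1.80, SE 0.43, by edgeR adjusted p = 0.00917). Here too fusing replicate 3 lay just above the free libraries, whose highest was replicate 3.

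*PRDM1*, the repressor that ends the B cell program in plasma cells, stood at 15.1, 11.5, 12.1 and 10.96 CPM in fusing IVDs. In free IVDs it stood at 1.03, 2.98, 7.96 and 5.04 CPM. Unlike *IGLL1* and *JCHAIN*, *PRDM1* was not lowest in fusing replicate 3 among the fusing libraries. The log2 fold change of *PRDM1* was 1.56 (SE 0.48, by edgeR adjusted p = 0.0296), and it was no longer called without fusing replicate 1, 2, 3 or 4 or free replicate 2 or 4 (log2 fold change 1.42 to 1.64, by edgeR adjusted p of 0.0534 to 0.0761). With the sample code block it was 2.25 and called. *FAM46C* had a log2 fold change of 1.80 and was not called (by edgeR adjusted p = 0.0530). It was called with the replicate number as a block (1.70, by edgeR adjusted p = 0.0313) and by DESeq2 (1.83, DESeq2 adjusted p = 0.0258). With the sample code block *FAM46C* was at 0.89 and not called (edgeR adjusted p = 0.353). *MZB1*, a chaperone cofactor of immunoglobulin assembly in B and plasma cells, was below the filter, with 36, 26, 5 and 36 counts in fusing replicates 1 to 4 and 1, 2, 3 and 0 counts in free replicates 1 to 4. Its summed rates differed 13.0-fold (95% exact interval 5.77 to 36.2, for counting error only).

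*XBP1* and *SDC1* (CD138), which are widely used as plasma cell markers and are also expressed outside the lineage, were abundant in both tissues and were singled out after their values were seen. *XBP1* averaged 128 ± 14.6 CPM in fusing IVDs and 209 ± 15.3 CPM in free IVDs, for a log2 fold change of -0.71 that was under the 2-fold limit (edgeR adjusted p = 0.00239). *SDC1* averaged 144 ± 28.3 CPM in fusing IVDs and 252 ± 47.0 CPM in free IVDs (SD, n = 4 each), for a log2 fold change of -0.81, also under that limit (edgeR adjusted p = 0.00837). With scaling by library totals alone, their log2 fold changes were -0.02 and -0.10. That scaling raised the median of all genes by 0.69.

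Among other B cell genes, 5 of 11 tested were called higher and none lower, with a median of 0.68. *CD180*, a toll-like receptor homolog of B cells and myeloid cells, had 4.85 ± 1.99 CPM in fusing IVDs and 0.338 ± 0.221 CPM in free IVDs (SD, n = 4 each; log2 fold change 3.80, by edgeR adjusted p = 0.000617). *BANK1*, a B cell scaffold protein, had 2.86, 2.93, 2.59 and 2.94 CPM in fusing IVDs, against 0.452, 0.181, 0.707 and 0.215 CPM in free IVDs (log2 fold change 2.81, by edgeR adjusted p = 0.000667). Fusing replicate 3 was the lowest fusing library for *BANK1*, by a small margin. The transcription factors *IKZF3* (2.66) and *BCL11A* (2.06) and the signaling protein *SWAP70* (1.32) were the others called, in log2 fold change. Those not called were *TNFRSF13B* (0.68), *CD40* (0.20), *TCF3* (0.06), *BACH2* (-0.40), *FCRL4* (-0.69) and *BCL6* (-0.75). *FCRL4* was lower in all fusing than in all free libraries (edgeR adjusted p = 0.0148), under the 2-fold limit. *BCL6* was also under that limit (edgeR adjusted p = 0.0402), and its libraries overlapped.

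Several defining B cell genes had few counts. *CD72* had 14 counts over the fusing libraries and 1 over the free libraries, with each fusing library above each free library (ratio of summed rates 10.6, 95% exact interval 1.61 to 448.0). *CXCR5*, a follicle homing receptor, had 24 and 7, and *TNFRSF13C*, a survival receptor, had 20 and 6. The chicken B cell antigen Bu-1 had 23, 7, 1 and 5 counts in fusing replicates 1 to 4, against 2, 4, 4 and 0 in free replicates 1 to 4, so its libraries overlapped. Of 8 early B cell genes, 3 were below the filter. *RAG1*, a recombinase gene, had 1 count in fusing libraries and none in free libraries, *DNTT* had 16 and 3, and *VPREB3*, which lies near *IGLL1* on chromosome 15, had no count in any library. Of 5 tested early genes, 1 was called higher, *FLT3*, a receptor of lymphoid and myeloid progenitors and dendritic cells (log2 fold change 2.92, SE 0.63, by edgeR adjusted p = 0.00591, and 4.00 without free replicate 2). *RAG2*, *ID3* and *FOXO1*, which also act outside B cells, had 1.35, 116 and 59.4 CPM on average in fusing IVDs, against 1.81, 155 and 59.1 CPM in free IVDs, and were not called. *IL7R*, the receptor of IL7, had a log2 fold change of 1.74 and was not called (by edgeR adjusted p = 0.0582). It was called with the replicate number as a block (1.79, by edgeR adjusted p = 0.00700) and by DESeq2 (1.75, DESeq2 adjusted p = 0.0277). With the sample code block it was 1.04 and not called (edgeR adjusted p = 0.368).

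Signaling genes downstream of the receptor rose in larger number. Of 19 tested, 14 were called higher and none lower, and their median log2 fold change was 2.21. The most abundant of the 19, *CD81*, went the other way, with every fusing library below every free library. Its mean was 428 CPM in the fusing group against 839 CPM in the free group. This fall, at -0.97 in log2 fold change, was just under the 2-fold limit (edgeR adjusted p = 0.00164). The kinase *SYK* had the highest log2 fold change (3.64, SE 0.47, by edgeR adjusted p = 0.000450), at 15.3 ± 6.98 CPM in fusing IVDs and 1.17 ± 0.620 CPM in free IVDs (SD, n = 4 each). The phosphatase *PTPN6* (3.25), the kinases *LYN* (3.24), *BLK* (2.88) and *TEC* (2.74) and the exchange factor *VAV3* (2.89) followed in log2 fold change. Most of these genes also act in myeloid or T cells. *BLK*, which is more restricted to B cells, had 4.70, 6.75, 3.43 and 5.26 CPM in fusing IVDs, against 0.711, 0.633, 0.884 and 0.429 CPM in free IVDs (edgeR adjusted p = 0.000263).

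Of the ligands that draw B cells or keep them alive, 2 of 4 tested were called higher. *IL6* had a log2 fold change of -0.39 and was not called (edgeR adjusted p = 0.370). *TNFSF13B*, a B cell survival factor, had a log2 fold change of 1.27 and was not called (edgeR adjusted p = 0.136). With the replicate number as a block it was 1.40 and called (edgeR adjusted p = 0.0342). With the sample code block it was 0.87 and not called (edgeR adjusted p = 0.357). The study's RT-PCR array, on another breed, had *TNFSF13B* and *IL7R* higher in fusing IVDs. The study states that all genes which differed there also differed in its RNA sequencing. Here *TNFSF13B* was not called by DESeq2 either (log2 fold change 1.30, DESeq2 adjusted p = 0.0943). *CXCL12*, the chemokine that retains B cell precursors and plasma cells in bone marrow, stood at 291, 298, 150 and 171 CPM in fusing IVDs, against 12.9, 14.6, 61.9 and 32.5 CPM in free IVDs (log2 fold change 2.90, SE 0.52, by edgeR adjusted p = 0.00218, and 3.50 without free replicate 3). *IL7*, a lymphocyte growth factor, had a log2 fold change of 1.23 (SE 0.30, by edgeR adjusted p = 0.0107), and was no longer called when each library was thinned to the depth of the shallowest (0.67) or with the sample code block (0.97). *CXCL13*, a follicle chemokine, had 3 counts in fusing and 2 in free libraries, and *IL21* had none. *CXCL13L2* had 8 counts in fusing and 6 in free libraries, and *CD40LG* had 29 and 6, and the libraries of both overlapped.

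Markers of other leukocytes rose in the same libraries. All 11 tested myeloid genes, all 5 pan-leukocyte genes and 8 of 10 T cell genes were called higher, with median log2 fold changes of 3.50, 3.48 and 2.03. Summed myeloid genes ranged from 441 to 1349 CPM in fusing IVDs and from 58.6 to 154 CPM in free IVDs, and T cell genes from 42.5 to 110 CPM in fusing IVDs and from 12.02 to 29.2 CPM in free IVDs. The part of these cells in the *BLNK*, *BTK* and signaling gene values was not tested. Of 6 red cell genes, 2 were called higher, and their sum ranged from 6961 to 33024 CPM in fusing IVDs and from 3316 to 12721 CPM in free IVDs. The part of blood in the members' values was not tested.

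**Figure D5:**
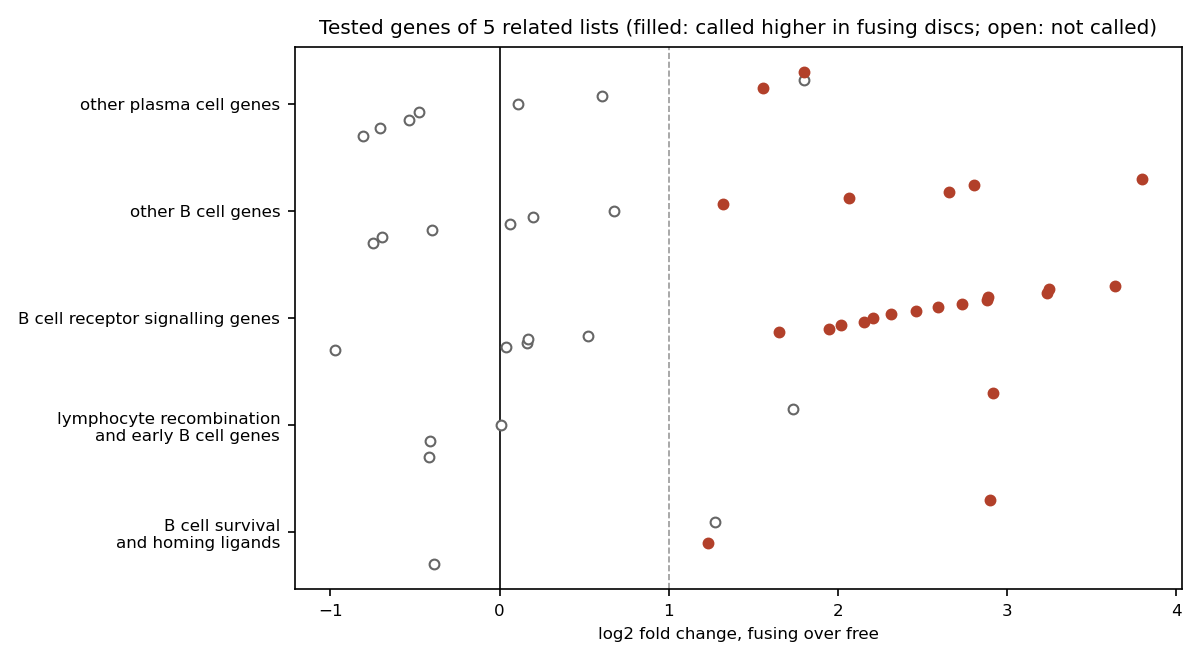
Log2 fold change of fusing over free IVDs for the tested genes of 5 lists related to B cells, with filled points for genes called higher and open points for genes not called. Of the receptor signaling genes, 14 of 19 lie to the right of the dashed line at a log2 fold change of 1 and are called, whereas 2 of 9 other plasma cell genes are.

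Pearson correlations of log2 CPM over the 8 libraries were ranked among tested genes, leaving out the members and all rows with LOC symbols. The genes ranked highest were *VH26L1* (0.99), *NLRC5* (0.99) and *GIMAP7L6* (0.99) for *IGLL1*, and *BCL11B*, *IL2RB* and *KCNB2* (all 0.99 or over) for *JCHAIN*. They were *KCNN1*, *INA* and *PLEKHM1* for *CD79B* (0.98 to 0.99), *USP18*, *SLC24A2* and *PSTPIP1* for *BLNK*, *NLRC3*, *FBXO21* and *ADGRG3* for *BTK*, and *GDF7*, *MGP* and *C5NT1AL* for *EBF1* (all at 0.99 or over). Among the tested members, *IGLL1* and *JCHAIN* had the highest correlation with each other (0.98), and *IGLL1* and *EBF1* the lowest (0.50). These values are descriptions over 8 libraries that share the difference between the tissues.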

How the data were processed

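RNA sequencing of polyA-selected mRNA was performed on 8 libraries, 4 from the fusing pygostyle and 4 from free caudal IVDs. The authors aligned read pairs with STAR to GRCg6a, counted them per gene with featureCounts without strand, and deposited whole-number counts of 24154 genes without normalization. Their DESeq2 table (fold changes, p-values, mean counts) was not used. Tools and build are from the study's methods and the submitters' processing notes.

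Groups and replicate numbers were taken from the titles, and every column of a library was used. Counts were fitted with edgeR 4.0.16 (quasi-likelihood, TMM factors, R 4.3.3) over the 8 libraries with no further term. The filter (filterByExpr, minimum count 10, minimum total 15) kept 13639 genes. Genes were called at a p, adjusted over all tested genes by Benjamini-Hochberg, under 0.05 where the log2 fold change was over 1 in size. Log2 CPM used a prior count of 2, and CPM used effective library sizes. The SE was taken from the test statistic. Library totals of 5682402 to 18434459 set the precision, and exact 95% intervals cover counting error only. The fit was tested on simulated counts.

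The members and lists were chosen with earlier results of these data known. Of 140 list names, 122 were found, 4 of them by an older name. Named were the members, up to 6 called genes with separated libraries per B cell list, *PTPRC* and rows described as immunoglobulin chains. Also named were the 3 genes most like each tested member, out of tested non-members whose symbols do not start with LOC. Other names were added after their values were seen. Positions are those of the deposited GRCg6a annotation, and chromosome names were set by shared symbols with a RefSeq gene table of GRCg7b. Sequences were not analysed here.

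Deviations from the tissue means correlated at 0.24, 0.16, 0.11 and 0.25 between libraries of the same replicate number in the titles. Apart from the sample codes below, libraries of unlike number were not compared, so these values do not show that the numbers pair the samples. The labels do not say what a number marks, and blocks by number were used only as alternatives. The sample codes share the numbers 8, 10 and 12 between the tissues, with correlations of 0.25, -0.06 and 0.24. Codes 8 and 12 join the same libraries as the titles do, and code 10 joins fusing replicate 3 to free replicate 2. The study calls the replicates biological. Alternatives were DESeq2 1.42.0, limma-voom (limma 3.58.1), RLE, upper-quartile and library total scaling, no filter, a stricter filter, blocks by replicate or sample code number, leaving out each library, and thinning.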

Additional observations from a re-analysis of the deposited data

Results flagged for a closer look

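In 50 groups of 4 libraries tested for a lone value on the log2 scale, 4 held a library far from the other 3, and chance gives about 1 in 20. *BTK* was low in free replicate 4, at 0.751 CPM, where 7 reads were counted. *PTPRC* was low in the same library, at 5.15 CPM. *POU2AF1* was low in fusing replicate 3, at 0.228 CPM, and so was *PTPN6*, at 38.7 CPM. The lowest fusing values of *IGLL1* and *JCHAIN* did not pass this limit.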

How the results depend on the processing

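Under 18 alternatives, the 6 tested members kept their call in 107 of 108 fits, and 16 named genes of the lists in 279 of 287, and no direction was reversed. The exception among members was *IGLL1* with the block by sample code, over 6 libraries, at 3.61 (edgeR adjusted p = 0.0988), and the cause was not tested. With the replicate block of the titles, all 6 tested members were called, and the only count that it moved by over 1.5 times was that of early B cell genes, at 2, where *IL7R* joined, while *FAM46C* made 3 other plasma cell genes and *TNFSF13B* made 3 ligands. Leaving out 1 library gave log2 fold changes of 3.93 to 5.09 for *IGLL1*, 3.52 to 4.33 for *JCHAIN*, 1.75 to 2.05 for *CD79B*, 3.25 to 3.67 for *BLNK*, 2.49 to 3.04 for *BTK* and 1.32 to 2.11 for *EBF1*. DESeq2 and the fit with no filter called 8 members, since *PAX5* and *POU2AF1* were then fitted. Library totals called 4179 genes higher and 624 lower, or 87.0% of calls higher against 57.7% with TMM factors. Other plasma cell genes called higher numbered 4 with DESeq2 and with library totals, 1 after thinning, and 1 to 3 when a library was left out. Early B cell genes called higher numbered 2 with DESeq2, upper-quartile factors and library totals, and 1 to 2 when a library was left out. Ligands called higher numbered 1 with the sample code block and after thinning. The sample code block called none of *FAM46C*, *IL7R* and *TNFSF13B*. Low counts limit *PAX5* and *POU2AF1*, which had at most 20 counts in a library.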

Other observations

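*IGHVL*, a row that the annotation names as an immunoglobulin heavy chain variable gene, stood at 19.9, 14.4, 21.2 and 16.0 CPM in fusing IVDs, against 2.33, 4.43, 4.60 and 1.18 CPM in free IVDs (log2 fold change 2.51, SE 0.37, edgeR adjusted p = 0.000873). It was not low in fusing replicate 3, unlike the VH26L rows. The row spans 927 kb of chromosome 27, overlaps many other genes and carries a T cell receptor name among its synonyms, so its identity is uncertain.

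Between the outermost VH26L rows lie 22 other rows of the annotation, chosen after their values were seen. Together they had 77, 57, 7 and 72 counts in fusing replicates 1 to 4, against 2, 14, 0 and 0 in free replicates 1 to 4. Of these rows, 4 had no count in any library.

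*CCL19*, a lymphoid chemokine below the filter, had 22, 17, 6 and 25 counts in fusing replicates 1 to 4, against 1, 0, 3 and 1 in free replicates 1 to 4. All fusing libraries were above all free libraries in CPM.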
